A study of Mus musculus with 4 samples.

Results

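The Hox genes encode homeodomain transcription factors that stand in 4 clusters in the mouse genome, and they were taken here as all protein-coding genes named Hoxa, Hoxb, Hoxc or Hoxd with a number, 39 of 21896 protein-coding genes in the RefSeq annotation. The accessible regions described are those from 20 kb before the first to 20 kb after the last gene of each cluster, 57 of 103629 regions in the whole series. Hox proteins set positional identity along the body axis, and the order of the genes on the chromosome follows the order of the body regions in which they act. Genes with the same number in different clusters are paralogues, low numbers act anteriorly and high numbers posteriorly. Polycomb complexes keep silent Hox genes closed, and trithorax proteins, including the SWI/SNF remodelling complexes, were first recognised in Drosophila as activators of Hox genes.

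Open chromatin was mapped by ATAC-seq, a method that uses the Tn5 transposase to tag accessible DNA, in cultured mouse melanoma cells of the B16F10 line. Cells carrying a guide RNA against Arid1a (sgArid1a, 2 libraries) were set against cells carrying a scrambled guide (sgScramble, 2 libraries). Arid1a encodes a DNA-binding subunit of a SWI/SNF complex. The labels name no other agent or allele, and they say neither whether the cells were a clone or a pool nor whether replicates were separate cultures, so the spread between replicates may be technical.

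Each library was represented by its own list of broad peaks with no read counts, so its sequencing depth is unknown. The lists held 65353 and 71255 peaks in sgArid1a replicates 1 and 2, against 82319 and 85613 in sgScramble replicates 1 and 2, and covered 53.7 and 62.6 Mb in sgArid1a, against 73.9 and 75.8 Mb in sgScramble. The covered genome was thus 22.3% smaller in sgArid1a on average. At Arid1a itself (GRCm38, chromosome 4, 133679008 to 133756769), peaks covered 1389 and 1382 bp within 2 kb of the start in sgArid1a, against 1452 and 1284 bp in sgScramble. Over the whole gene they covered 4849 and 5898 bp in sgArid1a, against 9131 and 8873 bp in sgScramble, and neither value reports on an edit. Peaks lay near the gene end or start of 10 of 10 melanocyte markers in all 4 lists, against 1 of 4 fibroblast, 0 of 3 keratinocyte, 0 of 4 leukocyte and 0 of 2 endothelial markers. With 2 libraries a group, the exact permutation test cannot give a two-sided p below 0.333, so no difference between the groups given here passes a threshold, and each is given with its spread. In bulk cells, fewer open alleles and less opening of each cannot be told apart.

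Most of the length of the Hox windows lay outside peaks in these cells, with islands of open chromatin between. Most islands recurred in all 4 libraries: 39 of the 57 Hox regions or 68.4% were in every list, against 51.0% of all regions. Of the other 18, 10 were in 1 list, 6 in 2 lists and 2 in 3 lists. Within 1 kb of a Hox start 13 of 16 regions were in every list, or 81.25%. Among all regions within 1 kb of a gene end 81.8% were. Away from Hox starts 26 of 41 were in every list, or 63.4%, against 45.6% of all regions farther from a gene end. Some Hox regions away from starts lie near a gene end, and none of these differences was tested. Peaks covered 7.30% and 8.04% of the 652.097 kb of the 4 windows in sgArid1a, against 8.57% and 9.10% in sgScramble. The covered share of the whole genome, which needs its length, was not computed. The windows were thus not compared with the rest of the genome by this measure. The windows held 44 and 45 peaks in the sgArid1a libraries and 47 and 48 in the sgScramble libraries. The map of peaks along the clusters shows islands at recurring positions, separated by long stretches without a peak. In Hoxa, the 12.78 kb around the starts of Hoxa5 and Hoxa6 held no peak in any list. In Hoxb, the last 38.328 kb of the window, with the starts of Hoxb2 and Hoxb1, held none, and in Hoxc the last 23.364 kb, with the listed start of Hoxc4, held none. Among peaks found in all 4 lists, the longest empty stretch was the first 62.259 kb of the Hoxc window, with the Hoxc13, Hoxc12 and Hoxc11 starts, and in Hoxd 38.475 kb held the starts of Hoxd12, Hoxd11, Hoxd10, Hoxd9 and Hoxd8.

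**Figure D1:**
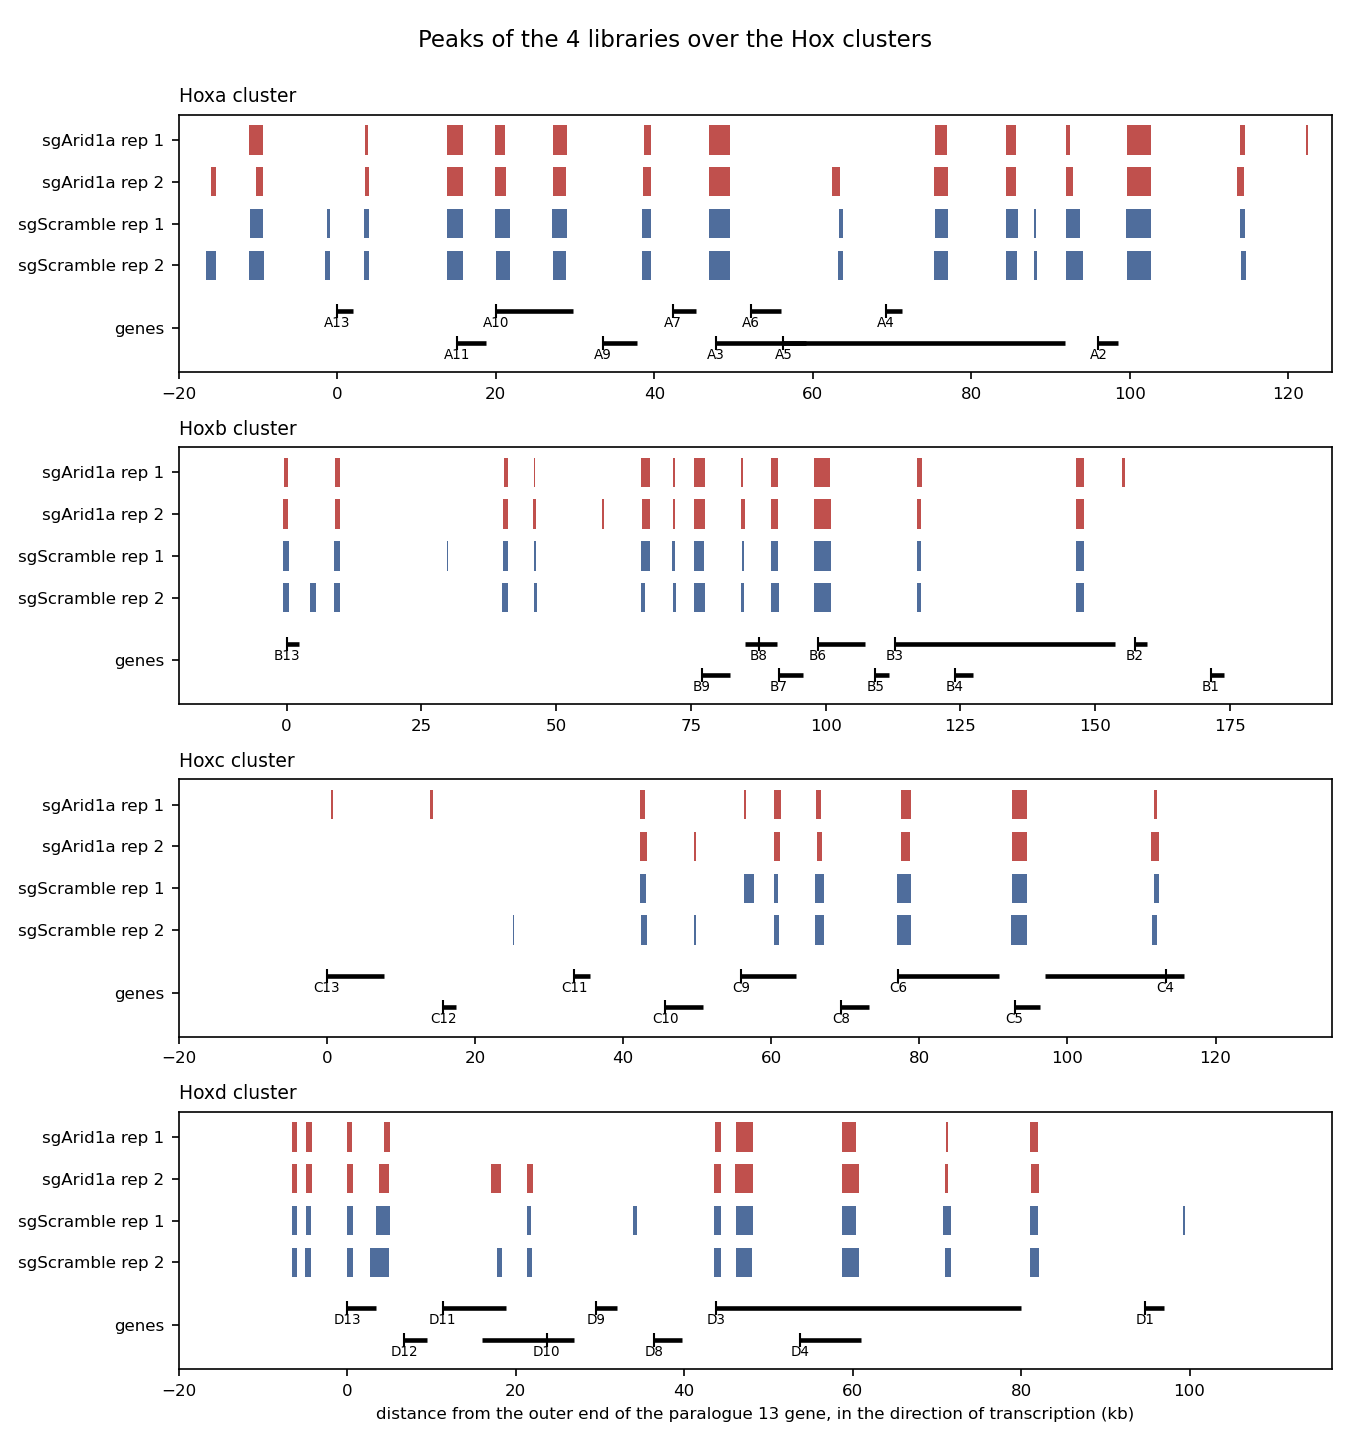
Peaks in the 4 Hox windows (coloured bars, 1 row per library, sgArid1a above sgScramble), with the distance in kb from the outer end of the gene numbered 13 on the x axis, read in the direction of transcription, and the bodies of 38 genes as black lines with a tick at the start used. Most islands recur in all 4 libraries, and 39 of the 57 regions were in every list.

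The 39 gene starts mostly divided into those with a peak in every library and those with none in any. A start was called open where a peak lay within 1 kb. By this measure 12 of the 39 were open in all 4 lists, 23 had no peak in any list and 4 had a peak in some. Among all 17491 protein-coding genes with a promoter in the RefSeq table, 55.8% were open in all lists and 39.7% had no peak in any. Of the 22 Hox genes in that table, 5 were open in all lists, or 22.7%, and 15 had no peak in any. The difference from the background was not tested. The number of the 39 starts with a peak was 14 and 13 in sgArid1a, against 15 and 13 in sgScramble, so the groups overlapped.

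The open starts described here belonged to Hoxa3, Hoxa10, Hoxa11, Hoxb6, Hoxb7, Hoxb9, Hoxb13, Hoxc5, Hoxc6, Hoxd3 and Hoxd13. The 12 open starts came from every cluster and from anterior, central and posterior paralogues: 3 of 12 genes numbered 1 to 4, 4 of 11 numbered 5 to 8 and 5 of 16 numbered 9 to 13. No peak lay within 1 kb of the start used for Hoxa2, Hoxa4, Hoxa5, Hoxa6, Hoxa7 or Hoxa9 in any list, nor of Hoxb1, Hoxb2, Hoxb3, Hoxb4, Hoxb5 or Hoxb8. The same held for Hoxc8, Hoxc10, Hoxc11 and Hoxc12, and for Hoxd1, Hoxd4, Hoxd8, Hoxd9, Hoxd10, Hoxd11 and Hoxd12. Hoxb8 was judged at its listed start, which lies inside its annotated body, and a region in all 4 lists (chr11:96278546-96279303) ended 98 bp before that body. The listed starts used for Hoxd10 and Hoxc4 also lie inside their bodies. A region in 3 lists (chr2:74689584-74690295) lay within the body of Hoxd10. Among the genes with no peak at the start used are Hoxa2 and Hoxb1, which pattern the hindbrain, Hoxb4 and Hoxa9, known for their roles in blood stem cells and leukaemia, and Hoxc8 and Hoxd10.

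Covered length, the bases under any peak within 2 kb of a start, gave a finer measure than presence. Over the 39 starts, the mean covered length was 569 and 568 bp in sgArid1a, against 632 and 623 bp in sgScramble. The group means were 568 ± 0.580 bp in sgArid1a and 628 ± 6.42 bp in sgScramble (SD, n = 2 each), a difference of -59.3 bp or -9.45% (exact permutation test, two-sided p = 0.333). It was -16.7 bp with overlapping groups when lists were held to equal length, and -26.5 bp with peaks at a −log10 q of at least 5. Over all listed protein-coding genes the difference with all peaks was -6.60%. Over the 22 Hox genes so listed it was -11.5%, a setting that was not planned. Of the 22 Hox starts with any peak within 2 kb, 10 were less covered in both sgArid1a libraries, none was more covered in both and 12 overlapped. Among all 11225 listed genes with a peak there, 36.2% were less covered and 6.73% more covered without overlap, and among the 11 Hox genes of that listed kind 4 were less covered. Neighbouring windows overlapped for 2 pairs of Hox genes, and no peak base was counted for both members of a pair.

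In Hoxa, Hoxa3, needed for thymus and parathyroid development, had 2640 and 2614 bp in sgArid1a, against 2632 and 2646 bp in sgScramble. Its outermost listed start lies between the bodies of Hoxa6 and Hoxa7, so that its peak stands in the middle of the cluster, and its groups overlapped.

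Hoxa10, which patterns the posterior skeleton and the uterus, had 1285 and 1313 bp in sgArid1a, against 1790 and 1717 bp in sgScramble. Hoxa11, a limb and uterus gene, had 1956 and 2012 bp in sgArid1a, against 2058 and 2038 bp in sgScramble. For both genes each sgArid1a library lay below each sgScramble library, with a mean difference of -454.5 bp at Hoxa10 and -64.0 bp at Hoxa11. Hoxa13, the distal limb and urogenital gene at the end of the cluster, had 0 bp in both sgArid1a libraries, against 340 and 605 bp in sgScramble. It was the 1 member with a peak near its start in each sgScramble library and none in the sgArid1a libraries. Hoxa2 had 63 bp in sgScramble replicate 2 and 0 in the other 3 libraries, and Hoxa4, Hoxa5, Hoxa6, Hoxa7 and Hoxa9 had 0 in every library.

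In Hoxb, Hoxb6, a central paralogue, had 2620 and 2594 bp in sgArid1a, against 2740 and 2711 bp in sgScramble. Hoxb7, known in human melanoma cells as an activator of a fibroblast growth factor gene, had 1277 and 1322 bp in sgArid1a, against 1361 and 1466 bp in sgScramble. Hoxb13, a prostate and hindgut gene that stands far from the rest of the cluster, had 842 and 884 bp in sgArid1a, against 1008 and 1116 bp in sgScramble. All 3 were less covered in each sgArid1a library, with mean differences of -118.5 bp at Hoxb6, -114 bp at Hoxb7 and -199 bp at Hoxb13. Hoxb9 had 1973 and 1936 bp in sgArid1a, against 1772 and 1996 bp in sgScramble, and its groups overlapped. Hoxb2 had 295 bp in sgArid1a replicate 1 and 0 in the other 3 libraries, and Hoxb1, Hoxb3, Hoxb4, Hoxb5 and Hoxb8 had 0 in every library.

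In Hoxc, Hoxc5 had 2023 and 2008 bp in sgArid1a, against 2055 and 2246 bp in sgScramble. Hoxc6 had 1283 and 1246 bp in sgArid1a, against 1796 and 1806 bp in sgScramble. Each sgArid1a library lay below each sgScramble library at both genes, and the mean difference at Hoxc6 was -536.5 bp, the largest among the 12 open starts. Hoxc9 had 228 and 0 bp in sgArid1a, against 1342 and 0 bp in sgScramble, so replicate 1 alone had a peak in either group. Hoxc4 had 423 and 997 bp in sgArid1a, against 645 and 767 bp in sgScramble, with overlapping groups. Hoxc12 had 389 bp and Hoxc13 250 bp in sgArid1a replicate 1, and both had 0 in the other 3 libraries. Hoxc8, Hoxc10 and Hoxc11 had 0 in every library.

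In Hoxd, Hoxd3 had 758 and 788 bp in sgArid1a, against 821 and 826 bp in sgScramble, with no overlap. Hoxd13, a digit patterning gene, had 656 and 730 bp in sgArid1a, against 715 and 706 bp in sgScramble, and its groups overlapped. Hoxd12 had 253 and 222 bp in sgArid1a and the same pair of values in sgScramble, all from the edge of a peak over 1 kb from its start. Hoxd10 had 0 and 405 bp in sgArid1a, against 158 and 236 bp in sgScramble, and Hoxd8 had 35 bp in sgScramble replicate 1 alone. Neither of the last 2 genes separated the groups, and Hoxd1, Hoxd4, Hoxd9 and Hoxd11 had 0 in every library.

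**Figure D2:**
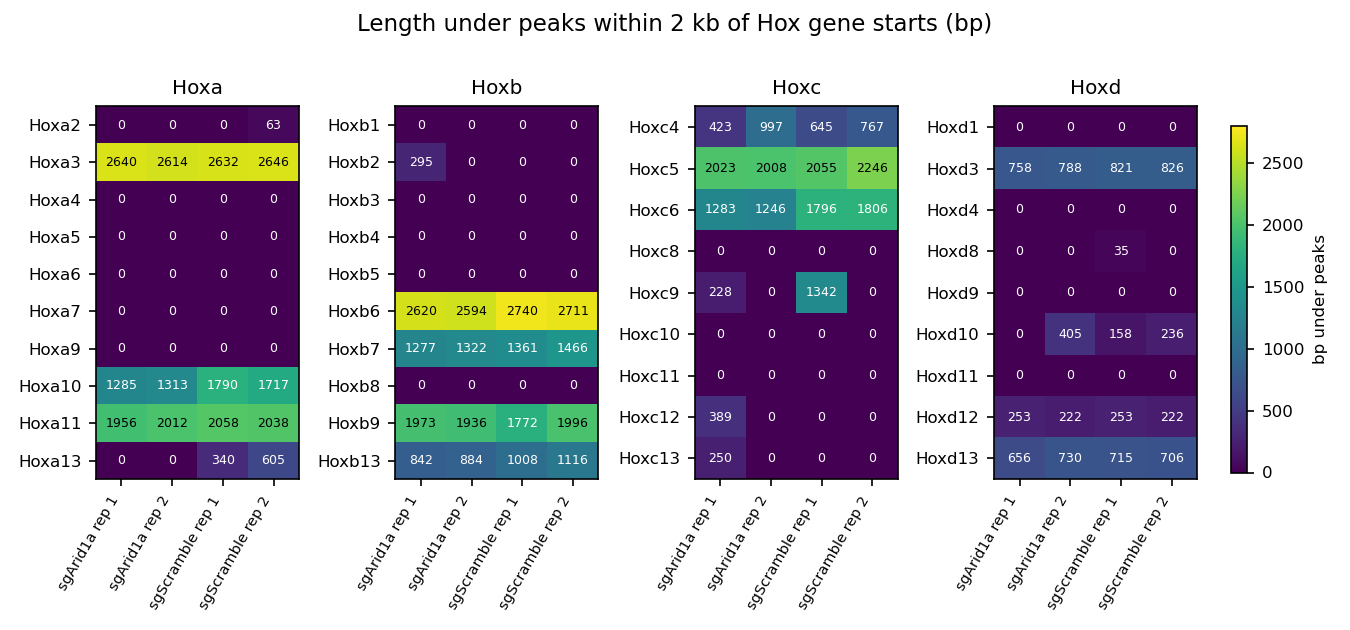
Bases under peaks within 2 kb of 38 of the 39 Hox gene starts (colour and number, bp), with genes in rows by cluster and the 4 libraries in columns, sgArid1a left of sgScramble. Of the genes drawn, Hoxa3 and Hoxb6 are the widest in every library, Hoxa13 is at 0 in both sgArid1a libraries, and 17 genes are at 0 in all 4.

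Covered length was also taken by paralogue class. Genes numbered 1 to 4 averaged 596 and 624 bp in sgArid1a, against 603 and 620 bp in sgScramble, with overlapping groups. Genes numbered 5 to 8 averaged 655 and 652 bp in sgArid1a, against 726 and 748 bp in sgScramble. Genes numbered 9 to 13 averaged 490 and 469 bp in sgArid1a, against 590 and 540 bp in sgScramble. In the central and posterior classes each sgArid1a library lay below each sgScramble library, by -11.4% and -15.2% on average, against -0.307% in the anterior class. The largest posterior differences were -557 bp at Hoxc9, -472.5 bp at Hoxa13 and -454.5 bp at Hoxa10, and Hoxc9 had a peak in replicate 1 alone. The largest central one was -536.5 bp at Hoxc6. In the anterior class, Hoxb2 stood 147.5 bp higher in sgArid1a through a peak in sgArid1a replicate 1 alone. That value offset lower ones at other anterior genes in the class mean. Of 11 posterior genes with any peak within 2 kb, 4 were less covered without overlap and 7 overlapped. The class means thus rest on few genes, and no alternative was run for them. The difference between the classes was not tested, since members are not replicates of a condition.

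The promoters of the Hox genes are known for their CpG content, and CpG-rich promoters tend to be open. The RefSeq promoter table (GRCm38.p6) lists 22 of the 39 genes, and the 250 bases before each start were read from it. The following 4 are shown because they set a promoter with open chromatin in every library, a promoter whose nearby peak was in the sgScramble lists alone, a promoter with no peak in any list and an open promoter with fewer CpGs than the median of all, with each CpG in capitals.

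Hoxd13, chr2:74667975-74668224, plus strand: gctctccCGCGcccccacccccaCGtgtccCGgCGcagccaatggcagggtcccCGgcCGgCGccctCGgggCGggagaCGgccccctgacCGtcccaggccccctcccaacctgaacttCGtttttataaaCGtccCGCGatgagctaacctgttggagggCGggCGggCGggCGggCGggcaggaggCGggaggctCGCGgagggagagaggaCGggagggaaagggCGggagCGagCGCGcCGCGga

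Hoxa13, chr6:52260881-52261130, minus strand: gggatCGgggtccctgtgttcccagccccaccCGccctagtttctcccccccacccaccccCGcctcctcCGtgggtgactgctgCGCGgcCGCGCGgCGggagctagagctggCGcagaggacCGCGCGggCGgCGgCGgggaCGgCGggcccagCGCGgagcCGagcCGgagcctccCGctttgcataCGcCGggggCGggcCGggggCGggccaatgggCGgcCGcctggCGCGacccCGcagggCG

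Hoxa5, chr6:52204588-52204837, minus strand: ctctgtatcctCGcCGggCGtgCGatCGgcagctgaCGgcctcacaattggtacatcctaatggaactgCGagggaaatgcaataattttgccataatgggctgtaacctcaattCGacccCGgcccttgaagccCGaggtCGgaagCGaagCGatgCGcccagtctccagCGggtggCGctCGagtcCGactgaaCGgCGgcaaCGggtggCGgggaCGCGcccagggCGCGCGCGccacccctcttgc

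Hoxa10, chr6:52240855-52241104, minus strand: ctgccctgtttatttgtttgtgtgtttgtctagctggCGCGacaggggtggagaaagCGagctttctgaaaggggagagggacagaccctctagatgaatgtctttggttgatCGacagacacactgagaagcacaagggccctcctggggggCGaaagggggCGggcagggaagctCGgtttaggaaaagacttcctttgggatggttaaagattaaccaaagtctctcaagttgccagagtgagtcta

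These stretches held 31 CpGs at Hoxd13, 35 at Hoxa13, 28 at Hoxa5 and 7 at Hoxa10. The median was 12 CpGs over the 22 Hox promoters and 10 over all 17491. Classes of CpG count were set after the values were seen. Of all promoters with at least 16 CpGs, 89.4% of 5937 were open in all lists, and of the Hox promoters in that class 2 of 7 were, Hoxa3 and Hoxd13. Hoxa5, Hoxa6, Hoxd1 and Hoxd10, with 20 to 28 CpGs, had no peak within 1 kb in any list. With 6 to 15 CpGs, 70.7% of 4936 promoters and 3 of 12 Hox promoters were open in all lists, and with 0 to 5 CpGs, 14.5% of 6618 promoters and 0 of 3 Hox promoters were. In each class the Hox share was below that of all promoters, a difference over 3 to 12 genes that was not tested.

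Short motifs were searched in the same 250 bases on both strands. The TATA box TATAAA was in 3 of 22 Hox promoters (Hoxb8, Hoxd4 and Hoxd13) and in 12.4% of all promoters. The PBX-HOX motif TGATNNAT was in 3 (Hoxa2, Hoxb1 and Hoxb8) and in 6.98% of all. Those 3 genes had no peak within 1 kb of their listed starts in any list. The E-box CACGTG was in 3 (Hoxd1, Hoxd10 and Hoxd13) and in 6.65% of all, the AP-1 motif TGANTCA in 1 (Hoxd11) and in 6.18% of all, and the CTCF core CCCTC in 13 and in 63.3% of all. A match describes these letters only and does not show that a factor is bound.

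Regions were also ranked by strength. Strength was taken as the percentile of the authors' fold among all peaks of the same list, since folds from different lists are not on 1 scale, and was averaged over the 4 lists. The strongest Hox region in all lists (chr6:52221289-52222406) stood between Hoxa7 and Hoxa9 at a mean percentile of 98.7, with 948 and 1038 bp in sgArid1a, against 1095 and 1114 bp in sgScramble. The second (chr2:74749311-74750324) lay in Haglr, a long non-coding RNA gene between Hoxd3 and Hoxd1, at 95.6, with 973 and 929 bp in sgArid1a, against 952 and 1010 bp in sgScramble. The first was narrower in both sgArid1a libraries and the second overlapped between the groups.

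The third (chr11:96284100-96285597) ended 7 bp before the Hoxb7 start and overlapped the end of Hoxb8, at a percentile of 89.0. The fourth (chr11:96311249-96312120) lay inside the long Hoxb3 gene at 88.4, with 850 and 724 bp in sgArid1a, against 778 and 764 bp in sgScramble. The fifth (chr11:96240076-96240676) lay in the long gap between Hoxb13 and Hoxb9 at 86.3, with 326 and 448 bp in sgArid1a, against 421 and 545 bp in sgScramble. Of these 5 regions 4 lay over 1 kb from any Hox start, as did 26 of the 39 regions in all lists. Above the 80th percentile were 2 of the 13 at starts and 5 of the 26 away from them. Of the regions in all lists, the 13 at a start had a median percentile of 40.6 and the 26 away from starts one of 65.2. This order holds for fold alone. The regions at starts were wider, with a median of 1801 bp in sgScramble, against 1018.75 bp away from starts. By the deposited −log10 p the region at the Hoxa3 start stood above the Haglr region in every list. The same split was not made for all regions.

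**Figure D3:**
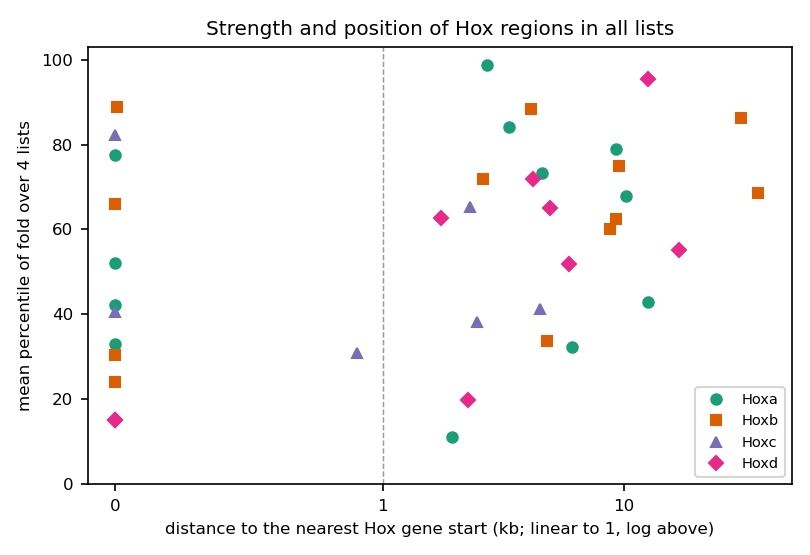
Percentile of the peak's deposited fold, averaged over the 4 lists (y axis), against the distance to the nearest Hox start (x axis, kb, linear to 1 and log above) for the 39 Hox regions in all lists, with a marker per cluster and a dashed line at 1 kb. The 26 regions away from starts have a median of 65.2 and reach 98.7, and the 13 at starts have a median of 40.6.

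The widest regions of Hoxb, Hoxc and Hoxd lay over genes. In Hoxb the widest spanned the Hoxb6 start and Hoxb5os (chr11:96292075-96295268), with 2975 and 3045 bp in sgArid1a, against 3194 and 3153 bp in sgScramble. In Hoxc it spanned the Hoxc5 start and the microRNA gene Mir615 (chr15:103013453-103015698). In Hoxd it ran from the end of Hoxd13 towards Hoxd12 (chr2:74670873-74673265), with 670 and 1232 bp in sgArid1a, against 1589 and 2362 bp in sgScramble. All 3 regions were narrower in both sgArid1a libraries. The Hoxd region is the widest only as a merged span set by sgScramble replicate 2, and in the other 3 libraries a region inside Hoxd3 (chr2:74714262-74716433) covered more.

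Peaks covered 47572 and 52437 bp of the Hox windows in sgArid1a, against 55897 and 59365 bp in sgScramble. The means were 50004.5 ± 3440 bp in sgArid1a and 57631 ± 2452 bp in sgScramble (SD, n = 2 each), a difference of -13.2% (exact permutation test, two-sided p = 0.333). As a share of the covered genome, the Hox windows took 0.0885% and 0.0838% in sgArid1a, against 0.0756% and 0.0784% in sgScramble, a share 11.9% higher in sgArid1a (exact permutation test, p = 0.333). The windows thus held less open sequence and yet a larger part of it in sgArid1a, the list length differing between the groups. When the share was taken over regions in all 4 lists alone, a setting chosen after the data were seen, the difference was 0.000946 percentage points, against 0.00917 over all peaks, and the groups overlapped. With each list held to the length of the shortest, the difference in covered length was -3449.5 bp, against -7626.5 bp over all peaks.

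By cluster, Hoxa had 17811 and 19480 bp in sgArid1a, against 21391 and 23717 bp in sgScramble, or -17.3%. Hoxb had 14591 and 14678 bp in sgArid1a, against 14974 and 15650 bp in sgScramble, or -4.42%, and with lists of equal length the sign turned, at 10 bp more in sgArid1a. The Hoxb difference of -677.5 bp was -339.5 bp without sgScramble replicate 2. Hoxc had 6761 and 6908 bp in sgArid1a, against 8313 and 7981 bp in sgScramble, or -16.1%. In these 3 clusters each sgArid1a library lay below each sgScramble library. With equal lists the Hoxc difference was -68.0 bp, against -1312.5 bp with all peaks. Hoxd had 8409 and 11371 bp in sgArid1a, against 11219 and 12017 bp in sgScramble, and the groups overlapped. Its mean difference of -1728 bp became -247 bp without sgArid1a replicate 1 and -3209 bp without sgArid1a replicate 2.

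**Figure D4:**
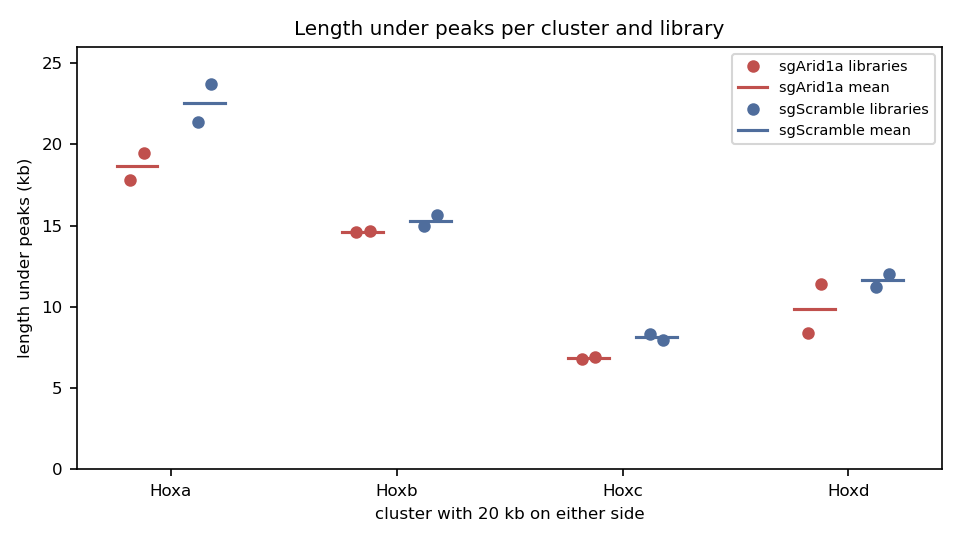
Length under peaks in each Hox window (y axis, kb) for the 4 libraries (points), sgArid1a left of sgScramble, with group means as lines. In Hoxa, Hoxb and Hoxc both sgArid1a points lie below both sgScramble points, and in Hoxd they overlap.

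Loss and gain of whole regions were rare in the clusters. A region was called lost when it had a peak in each sgScramble list and no peak in either sgArid1a list, and gained in the reverse case. Of 43 Hox regions in both sgScramble lists 2 were lost, a share of 4.65% (exact 95% Clopper-Pearson interval 0.568% to 15.8%, counting error only), against 12.9% of all regions. That background was 3.08% within 1 kb of a gene end and 15.1% farther away, so the interval holds both. Of 39 Hox regions in both sgArid1a lists 0 were gained, where 3 counts would make 7.69% and the exact interval reaches 9.03%, against 1.39% of all regions. The number lost ranged from 2 to 5 and the number gained from 0 to 4 when 1 library was left out. Without sgScramble replicate 2, 5 of 47 were lost or 10.6%, against 18.9% of all regions under the same setting. Without sgScramble replicate 1, 4 of 48 were lost or 8.33%, against 20.8%. Without sgArid1a replicate 2, 4 of 43 were lost or 9.30%, against 23.1%, and 4 of 44 were gained or 9.09%, against 7.52%. Without sgArid1a replicate 1, 2 of 43 were lost or 4.65%, against 17.4%, and 1 of 45 was gained or 2.22%, against 8.01%. The share of all regions thus moved with the library left out as well.

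Both lost regions were in Hoxa, and both were narrow and of low fold. The first (chr6:52172626-52172955) lay inside Hoxa3 and at the edge of the non-coding gene Gm15050, with 0 bp in both sgArid1a libraries, against 241 and 330 bp in sgScramble. Its folds ranked at a mean percentile of 2.08 in the sgScramble lists. The second (chr6:52261780-52262384) lay 900 bp before the Hoxa13 start and 391 bp from Hottip, and is the one counted at Hoxa13 above. Its folds ranked at 7.39. By fold, both were among the lowest peaks of the sgScramble lists.

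The 39 regions in all 4 lists were compared by width. A region was called narrower when both sgArid1a libraries covered fewer bases of it than both sgScramble libraries, and wider in the reverse case. Among the 39, 20 were narrower, a share of 51.3% (interval 34.8% to 67.6%), against 40.6% of all regions in all lists, and 4 were wider, a share of 10.3% (interval 2.87% to 24.2%), against 6.45%. Both intervals hold the background, and they treat neighbouring regions as independent. The remaining 15 overlapped between the groups. The narrower regions kept from 34.5% to 97.5% of their sgScramble width, with a median of 83.4%, and 7 of them kept at most 75%. These values are low by selection, and those for the narrower regions of the whole series are not given here. Without that selection, the median over the 39 Hox regions was 94.8% of the sgScramble width. Over all regions in all lists it was 91.3%. By this measure the Hox regions narrowed less, although a larger share of them was called narrower. Neither difference was tested.

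The 7 were spread over 3 clusters. The most narrowed (chr6:52166769-52168939) lay in the non-coding gene Hoxaas2 between Hoxa2 and Hoxa3, with 525 and 834 bp in sgArid1a, against 1772 and 2171 bp in sgScramble. The next (chr2:74739011-74739925) lay inside Hoxd3, with 281 and 381 bp in sgArid1a, against 906 and 767 bp in sgScramble. The Hoxd region between Hoxd13 and Hoxd12 and the Hoxc6 and Hoxa10 starts, all given above, were among them. Another (chr15:102987001-102988226), before Hoxc8, had 677 and 671 bp in sgArid1a, against 1126 and 1208 bp in sgScramble. The last (chr6:52256867-52257547), between Hoxa11 and Hoxa13, had 319 and 482 bp in sgArid1a, against 626 and 681 bp in sgScramble. At starts, 9 of 13 regions were narrower and 0 wider, against 38.1% narrower and 7.08% wider of all regions within 1 kb of a gene end. Away from starts 11 of 26 were narrower and 4 wider, against 41.3% and 6.25% of all regions farther from a gene end. The rules differ, since Hox regions were split by distance to a Hox start and all regions by distance to any gene end. The Hoxaas2 region, 120 bp from a gene end, was thus counted as away from starts. None of these differences was tested.

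Of the 4 wider regions 2 lay in the Hoxd window, 1 in Hoxa and 1 in Hoxc. The region inside Hoxd3 (chr2:74714262-74716433) had 2088 and 2124 bp in sgArid1a, against 2062 and 1953 bp in sgScramble. That inside Hoxc9 (chr15:102981518-102982402) had 850 and 784 bp in sgArid1a, against 559 and 668 bp in sgScramble. That beyond Hoxd13, in Gm31790 (chr2:74663234-74664022), had 735 and 720 bp in sgArid1a, against 620 and 706 bp in sgScramble. The one in the flank of the Hoxa cluster (chr6:52146199-52147338) had 684 and 905 bp in sgArid1a, against 641 and 660 bp in sgScramble. The plot of width shows these 4 above the line of equal width.

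**Figure D5:**
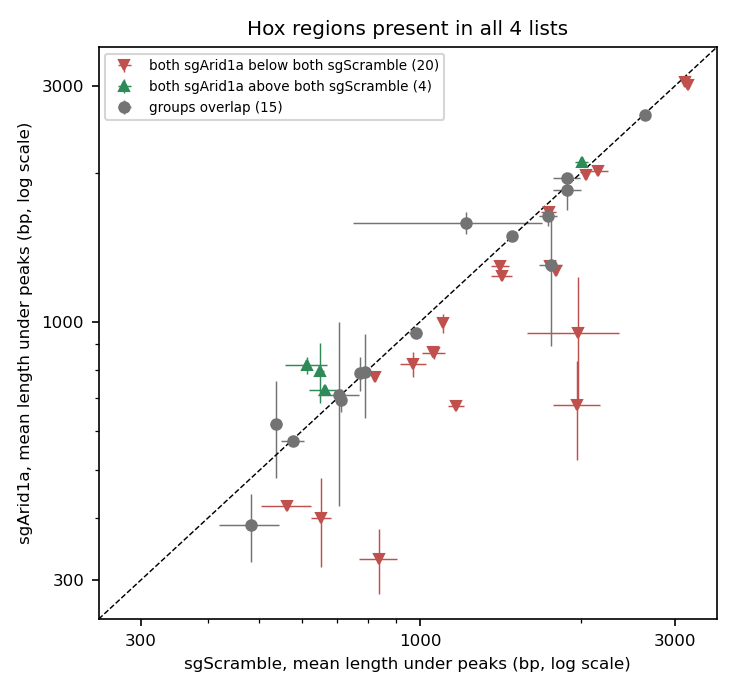
Mean bases under peaks in sgArid1a (y axis, bp) against sgScramble (x axis, bp) for the Hox regions in all 4 lists, on log scales, with the line of equal width dashed and bars from the lower to the higher library of a group. The 20 narrower regions lie below the line and the 4 wider ones above it.

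The clusters also hold genes of microRNAs, some of them known to repress Hox messages, and long non-coding RNA genes. Mature sequences from RefSeq (GRCm38.p6) are shown, since microRNAs pair with their targets through the seed (bases 2 to 8, in capitals).

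miR-10a-5p: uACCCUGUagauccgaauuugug

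miR-10b-5p: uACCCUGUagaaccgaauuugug

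miR-196a-5p: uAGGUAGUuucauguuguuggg

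miR-196b-5p: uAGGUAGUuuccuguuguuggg

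miR-615-3p: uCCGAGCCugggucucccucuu

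miR-10a and miR-10b share 1 seed, and miR-196a and miR-196b another. Of the 6 microRNA genes, only Mir615 lay under a peak, with all 92 bp of its hairpin covered in every library, inside the Hoxc5 region. Mir10b in Hoxd lay 783 and 798 bp from the nearest peak in sgArid1a, against 771 and 790 bp in sgScramble. Mir196a-1 in Hoxb lay 674 and 643 bp away in sgArid1a, against 588 and 645 bp in sgScramble. Both distances barely differed between libraries. Mir196b in Hoxa lay 1788 and 1798 bp away in sgArid1a, against 1783 and 1837 bp in sgScramble, and Mir10a in Hoxb 5045 and 5171 bp in sgArid1a, against 5139 and 5145 bp in sgScramble. Mir196a-2 in Hoxc lay 4018 and 2379 bp away in sgArid1a, against 3984 and 2379 bp in sgScramble. The microRNAs of both shared seeds thus lay outside peaks in every library.

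Of the 27 long non-coding genes that the annotation places in the windows, 17 held a peak in all lists, 6 in none and 4 in some. A peak anywhere in the gene counted, so longer genes had more room for one. The share over all long non-coding genes was not computed, so these counts are a description only. Hottip, which lies beyond Hoxa13 and is known in human cells to help keep the distal HOXA genes active, had 0 bp in every library, and its nearest peak was 2660 and 2611 bp away in sgArid1a, against 647 and 391 bp in sgScramble. Hotair, the Hoxc transcript known in human cells for its link to Polycomb, had a peak in sgScramble replicate 2 alone, of 249 bp. Gm30134 beside Hoxb13 had 349 and 328 bp in sgArid1a, against 534 and 1341 bp in sgScramble. Part of the last value came from a peak found in sgScramble replicate 2 alone (chr11:96198572-96199680).

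Partners and regulators of the Hox genes were described from lists. The TALE cofactors (Pbx, Meis and Pknox), homeodomain proteins that bind DNA with Hox proteins, were open in all 4 lists at 9 of 9 genes, against 55.8% of all listed genes. Of the 59 regions assigned to them in both sgScramble lists, 8 were lost, or 13.6%, against the 12.9% of all regions, and 0 of 43 were gained, against 1.39%. Pbx3 and Meis2 each lost 2. Other homeobox genes linked to Hox regulation (Cdx1, Cdx2, Cdx4, Evx1, Evx2, Gsx1, Gsx2 and Pdx1) were open in all lists at 0 of 8, against the same 55.8%. Of their regions 2 of 18 were lost, or 11.1%, near the 12.9% of all regions, and 0 of 16 were gained, against 1.39%. Gsx1 alone had a peak within 1 kb in each sgArid1a library and none in the sgScramble libraries, and within 2 kb it had 1073 and 1057 bp in sgArid1a, against 847 and 845 bp in sgScramble. Of all listed genes with a peak within 2 kb, 6.73% were more covered in sgArid1a without overlap.

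Regulators of the clusters, from the MLL methyltransferase gene Kmt2a to the CTCF and cohesin genes and the retinoic acid receptors, were open in all lists at 8 of 10, against the same 55.8%. Of their regions 8 of 41 were lost, or 19.5%, against 12.9% of all regions, 3 of them at Kmt2a and 2 at the cohesin gene Rad21. Of 33 in both sgArid1a lists 0 were gained, against 1.39% of all regions. Rad21 had a peak within 1 kb of a gene end in 1 list. Cyp26a1, which breaks down retinoic acid, had no peak within 1 kb in any list. Kmt2a had 2711 and 2741 bp within 2 kb of its start in sgArid1a, against 2787 and 2802 bp in sgScramble, so its start was open in every library while the lost regions lay elsewhere. None of these lists was tested against other genes.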

How the data were processed

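ATAC-seq was run in 4 libraries of B16F10 cells, 2 per guide, with the Omni-ATAC protocol and 50000 cells per reaction, per the labels' protocols. The authors deposited a separate broad peak list for every library, and replicates were not pooled. Each peak has a deposited score, −log10 p-value, −log10 q-value and fold, which is a ratio to background. HOMER and STAR 2.5.3a, and mm10 or GRCm38 as the build, come from the submitters' processing notes, which were given without roles. Not given in the sources used here are the peak caller and any Tn5 offset. Depth, on which the lists depend, is unknown, so folds were ranked within each list.

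Peaks overlapping by at least 1 bp were merged into regions, on chromosomes 1 to 19 and X and Y. Gene names and ends came from RefSeq (GRCm38.p6). Starts of 22 Hox genes came from its promoter table, the outermost 5′ start being used, and for the other 17, where either gene end had been planned, the 5′ gene boundary by the strand of the cluster's listed genes was used instead. Genes of the other lists with no listed promoter were judged at either gene end. Regions were assigned to the nearest gene end within 50 kb for the cofactor and regulator lists. Groups were compared by an exact two-sided permutation test, and shares have Clopper-Pearson intervals. The members and gene lists were chosen with earlier results of these data known. Genes named were members closed in every list, up to 4 per cluster by covered length and by difference, all lost and gained regions, the 5 strongest and the widest regions per cluster, each non-coding gene group, and up to 3 listed genes by lost or gained regions. Others were named after their values were seen. The values of 1 Hox gene are not reported here. The merging and calling steps were tested on simulated data. The alternatives were a −log10 q of at least 5, lists of equal length, the upper 50% by fold, peaks of at least 500 bp, other flanks and distances, merging within 1 kb, a 50% overlap, leaving out each library and the replicate number as a block. The software was SciPy 1.17.1, pandas 2.3.3, numpy 2.4.6 and matplotlib 3.10.9 under Python 3.11.15.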

Additional observations from a re-analysis of the deposited data

How the results depend on the processing

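Of the values recomputed under the alternatives, the direction of the covered length, of the share of the covered genome and of the covered length at the starts was the same under every alternative run, but the sizes moved. The Hoxb length turned to 10 bp more in sgArid1a with lists of equal length. The number of lost regions was 1 of 39 with lists of equal length (6.97% of all regions), 1 of 22 in the upper 50% by fold (15.1%), 1 of 38 with no flank (12.9%) and 5 of 42 at a 50% overlap of single peaks (17.3%), and ranged from 2 to 5 over the libraries left out. The number gained was 1 of 31 at a −log10 q of at least 5 (0.27% of all regions) and 1 of 44 with a flank of 50 kb (1.39%), and ranged from 0 to 4 over the libraries left out. In the upper 50% by fold, 5 starts were open in all lists and 9 of 19 regions were narrower (39.1% of all regions). The share differed by 0.00468 percentage points with equal lists, 0.00466 in the upper 50% by fold and 0.0211 at a −log10 q of at least 5. In the upper 50% by fold the covered length differed by -4061.5 bp and the start length by -26.0 bp. The causes were not tested.

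With 1 library left out, the covered length differed by -10059 to -5194 bp, the share by 0.00680 to 0.0115 percentage points, the start length by -63.8 to -54.8 bp, and 21 to 28 regions were narrower, where 51.9% to 65.8% of all regions were. Without sgArid1a replicate 1 the narrower share was 58.5% of Hox regions and 51.9% of all regions, and without sgArid1a replicate 2 it was 71.8% and 65.8%. Without sgScramble replicate 1 it was 69.2% of Hox regions and 55% of all regions, and without sgScramble replicate 2 it was 53.8% and 53.9%. With the replicate number as a block, the differences were -7626.5 bp, 0.00917 percentage points and -59.3 bp, and the exact sign-flip test gave its smallest p, 0.5. The labels do not say that the numbers pair libraries, and same-numbered libraries deviated together with a correlation of 0.0119 over 52885 regions, so the numbers were not taken as pairs. Read counts would be needed to separate weaker peaks from a shallower library, which these lists cannot do.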
